A study of Mus musculus with 18 samples.

Results

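Fibroblasts lacking the stress kinases JNK1 and JNK2 were compared with wildtype fibroblasts at day 6 of co-culture with human keratinocytes. The 8 arrays, 4 per genotype, were chosen by their titles, which name the genotype, the day and the replicate, and they are 8 of the 18 bead arrays of the series. The other arrays hold the same 2 lines before co-culture and at days 2 and 4. The wildtype line and the jnk1-/-jnk2-/- line, called KO here, were both made from E10.0 mouse embryos of the strain background BL6/129/Sv and immortalized by the 3T3 protocol. Both grew on culture inserts in FAD medium with insulin, hydrocortisone, cholera toxin and human EGF, in the presence of NHEK, human epidermal keratinocytes. The RNA of an array came from 2 pooled inserts in replicate 1, from 1 insert in replicates 2 and 3, and from 3 pooled inserts in replicate 4 of each genotype. Each genotype was 1 immortalized line, so a difference between the genotypes and a difference between the lines cannot be told apart, and p-values measure only the spread between arrays of inserts.

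JNK1 and JNK2 are the widely expressed members of the Jun N-terminal kinase family. They are switched on by a cascade of upstream kinases in response to stress and cytokines, and they phosphorylate Jun and other transcription factors that form the AP-1 complex. Fibroblasts feed keratinocytes in co-culture through secreted growth factors, and AP-1 in the fibroblast is known to control several of these signals.

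The arrays of day 6 fell into 2 processing sets, told apart by the kind of detection p-value and by brightness, since the labels name no batch. Replicates 2 to 4 of both genotypes form one set (mean bead intensity 581 to 653) and replicate 1 of both genotypes belongs to the other (392 and 441). Between 39.95% and 45.8% of the 45121 probes were detected on an array. Principal component 1 (67.4% of the variance) put the wildtype arrays between -57.06 and -54.25 and the KO arrays between 51.02 and 60.30. Component 2 (15.1%) put the replicate 1 arrays at 45.13 and 46.34, away from the rest at -18.11 to -13.43. The set was therefore a block in every test below.

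The targeted genes were read first. The main probe of Mapk9, which encodes JNK2, lay at 10.34, 10.26, 10.07 and 10.12 (normalized log2 signal, replicates 1 to 4) on the wildtype arrays and at 4.98, 4.97, 4.51 and 4.70 on the KO arrays. The groups did not overlap, and Mapk9 was lower in KO by a log2 difference of -5.41 ± 0.15 (standard error, as in all values below, limma adjusted p = 5.52e-10). It was detected on 1 KO array. The size of such a difference depends on how the background was removed: in the authors' deposited log2 matrix, which subtracts none, it was -3.21, and 98 of the 143 called genes named by rule were over 1.5-fold smaller there, with the same direction. A second Mapk9 probe, seen on 4 wildtype and 0 KO arrays, was at least 10.8-fold lower. The 2 other Mapk9 probes past the filter were dim in wildtype, seen on 4 and 2 wildtype arrays and on 0 KO arrays. They were at least 1.66-fold and 1.06-fold lower. Mapk8, which encodes JNK1, lay at 6.38, 6.13, 6.05 and 6.47 in wildtype and at 5.74, 6.20, 6.08 and 6.12 in KO, and did not pass the threshold (-0.22 ± 0.18, adjusted p = 0.395). Its groups overlapped, and the 2 other Mapk8 probes past the filter gave -0.16 ± 0.21 and -0.50 ± 0.22. Where the Mapk8 deletion lies is not given in the labels, and a probe outside it checks nothing.

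The genotypes differed over a large share of the transcripts. At an adjusted p under 0.05, 5591 of 16322 features differed (34.3%), of which 2891 were higher in KO (17.7%) and 2700 lower (16.5%). Of these, 1982 differed at least 2-fold (12.1%), 684 at least 4-fold (4.19%) and 124 at least 16-fold (0.76%). Among the 12025 features with a single gene symbol, 4610 were called (38.3%), 2385 higher and 2225 lower, with a median difference of 0.02. In RNA of whole inserts, fewer cells of a kind and less RNA per cell cannot be told apart. Of the 16322 features, 156 were detected on all 4 KO arrays and 0 wildtype arrays, and 187 on all 4 wildtype arrays and 0 KO arrays. Detection is a threshold, and most of these differences need not be large. The median lower bound of the fold was 2.92 and 2.8, and 26 and 28 features had a bound over 10-fold. Called were 154 and 182 of them. The median spread between the arrays of the brighter set was 0.17 (log2 SD) in wildtype and 0.22 in KO.

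**Figure D1:**
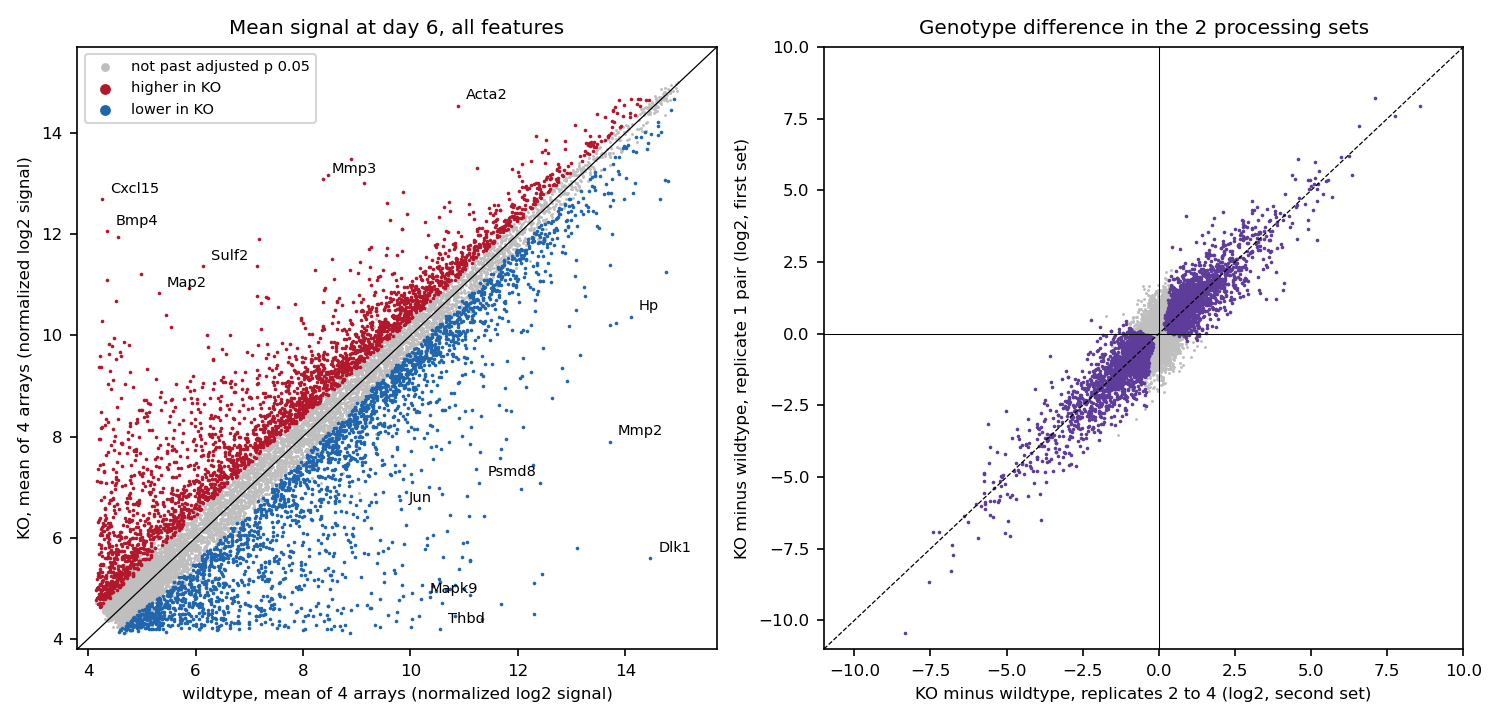
Left, mean normalized log2 signal of the 4 KO arrays (vertical) against that of the 4 wildtype arrays (horizontal) at day 6 for 16322 features, with the 2891 higher and 2700 lower features coloured and the diagonal marking equal signal. Right, the log2 difference KO minus wildtype in the replicate 1 pair (vertical) against that of replicates 2 to 4 (horizontal), with the 5591 called features in purple and equality dashed. Called features lay along the dashed line, which is partly fixed by the choice, since the calls used the arrays of both axes. Over all features, called or not, the Pearson r was 0.864.

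The replicate 1 pair gave a second look at each difference, since its 2 arrays share neither set nor inserts with replicates 2 to 4. Tested on replicates 2 to 4 alone, 4619 features were called, and 4407 of them (95.4%) had the same direction in the replicate 1 pair. Among those at least 4-fold different, 686 of 687 did (99.9%). Of the 11703 features not called, 7546 (64.5%) had the same direction in both sets.

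The most sharply separated genes were near background in one genotype and bright in the other. Bmp4, a secreted morphogen, lay at 4.90, 4.23, 4.17 and 4.13 in wildtype and at 12.48, 12.03, 11.86 and 11.87 in KO. No wildtype array detected it, and it was at least 172-fold higher in KO (adjusted p = 1.51e-11). Hsd17b12, an enzyme of fatty acid elongation, was higher by 6.23 ± 0.14, from 4.53 to 5.37 in wildtype to 10.72 to 11.49 in KO. Map2, a protein that binds microtubules and is best known from neurons, was higher by 5.51 ± 0.14, with 4 of 4 probes in that direction. Cxcl15, a mouse chemokine, had the largest lower bound, at 12.08, 13.46, 13.09 and 12.13 in KO, and at least 280-fold above wildtype. Crip2, a LIM-domain protein, Cadm1, an adhesion molecule, Epb41l4a, a FERM-domain protein, and Prelp, a leucine-rich matrix proteoglycan, were also detected on no wildtype array. Their lower bounds were 92.9-fold, 52.8-fold, 32.5-fold and 156-fold.

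The genes with the largest t in the other direction were bright in wildtype and near background in KO. Thbd encodes thrombomodulin, an anticoagulant receptor, and lay at 10.69, 10.42, 10.53 and 10.54 in wildtype and at 4.12, 4.33, 4.18 and 4.17 in KO, at least 63.3-fold lower. Ptgis, prostacyclin synthase, lay at 11.22, 10.33, 10.96 and 10.81 in wildtype and at 4.88, 4.40, 4.25 and 4.28 in KO, at least 73.6-fold lower. Neither was detected on any KO array. Tnfsf11, the osteoclast-inducing ligand RANKL, lay at 10.22, 10.63, 10.77 and 10.74 in wildtype and was lower by -5.89 ± 0.17. Tnfaip2, a gene induced by tumour necrosis factor, was lower by -5.13 ± 0.15 but was still detected on all 4 KO arrays at 5.83 to 6.04. The mast cell tryptase gene Tpsab1, Fam110c and Fez1, a kinesin adaptor, were detected on 0 KO arrays and were at least 46.2-fold, 43.8-fold and 36.2-fold lower.

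**Figure D2:**
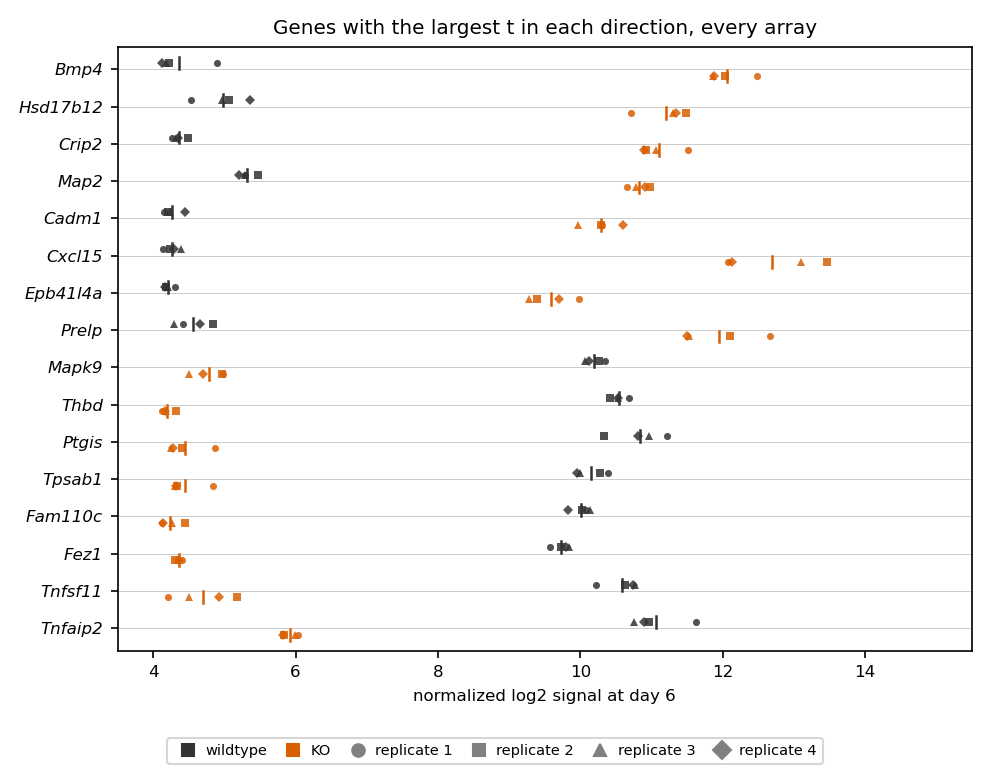
Normalized log2 signal (horizontal) of each day 6 array for the 8 named genes with the largest t in each direction (Mapk9 among the lower). Grey symbols are wildtype and orange symbols KO, the symbol shape gives the replicate, and the vertical bar is the mean of 4 arrays. The genes were chosen among those whose genotypes do not overlap, so the gap between grey and orange symbols is fixed by the choice, and the plot shows its width and the spread of the arrays.

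The genes with the brightest probes differed in both directions. Acta2, smooth muscle actin, lay at 11.68, 10.95, 10.15 and 10.72 in wildtype and at 14.65, 14.77, 14.23 and 14.51 in KO, 12.7-fold higher (3.67 ± 0.20, adjusted p = 7.76e-08). Mmp3, the secreted protease stromelysin-1, lay at 9.55, 7.82, 6.24 and 9.89 in wildtype and at 12.81, 13.57, 13.58 and 12.41 in KO. Its wildtype arrays were widely spread, so the difference of 4.72 ± 0.63 ran from 4.02 without wildtype replicate 3 to 5.30 without wildtype replicate 4. Ogn, osteoglycin, was higher by 4.70 ± 0.26, Ccn5, a matricellular protein, by 3.86 ± 0.23, and Cav1, the coat protein of caveolae, by 2.97 ± 0.17. Aldh3a1, an aldehyde dehydrogenase, was higher by 4.59 ± 0.20, and wildtype replicate 1 stood above the other wildtype arrays at 10.21 against at most 8.73.

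In the other direction, Mmp2, the gelatinase of mesenchymal cells, lay at 13.83, 13.57, 13.57 and 13.84 in wildtype and at 7.72, 8.74, 8.07 and 7.07 in KO, 55.8-fold lower (-5.80 ± 0.27). The 2 matrix proteases Mmp3 and Mmp2 differed in opposite directions. Dlk1, an inhibitor of adipocyte differentiation, lay at 14.69, 14.34, 14.37 and 14.47 in wildtype and at 4.24, 9.39, 4.42 and 4.32 in KO. KO replicate 2 alone detected Dlk1, and the difference of -8.87 ± 0.90 became -10.15 without that array, a fitted value, since no other KO array detected the gene. Mt1, a metal-binding metallothionein, was lower by -3.52 ± 0.23, Hp, haptoglobin, by -3.73 ± 0.16, Thbs2, a matrix thrombospondin, by -2.33 ± 0.19, and Ank, which exports pyrophosphate, by -2.48 ± 0.18. All of these stayed well above background in KO.

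**Figure D3:**
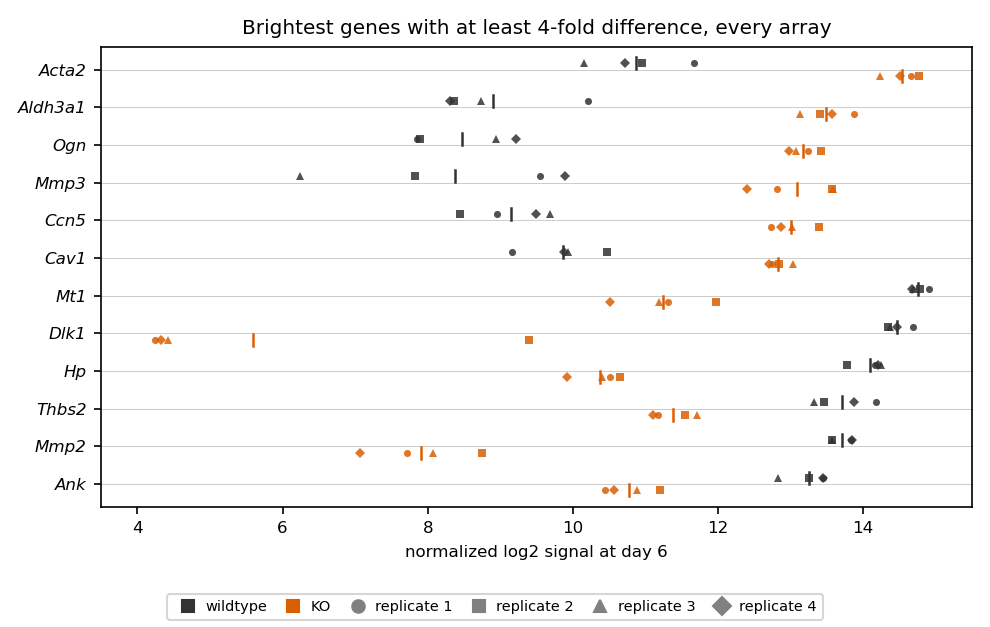
Normalized log2 signal (horizontal) of each day 6 array for the 6 brightest named genes at least 4-fold different in each direction, drawn as in the plot of genes with the largest t. The Mmp3 wildtype arrays run from 6.24 to 9.89, and KO replicate 2 stands at 9.39 for Dlk1 while the other KO arrays lie near 4.3.

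In the list of MAP kinases, kinase kinases, phosphatases and JNK scaffolds, 30 of the 55 measured were called, 12 higher and 18 lower, Mapk9 among the lower. The median difference was -0.14 (54.5% called, beside 38.3% of all named genes, 19.8% higher and 18.5% lower, with a median of 0.02). The p38 kinase genes Mapk12 and Mapk11 were higher. Mapk12 lay at 5.04, 4.28, 4.38 and 4.41 in wildtype, undetected, and at 7.64, 6.78, 7.05 and 6.85 in KO, at least 5.30-fold higher, and Mapk11 was higher by 2.04. Map2k6, the kinase that activates p38, was lower by -2.09. The list holds 21 measured dual-specificity phosphatase genes, a family that includes enzymes known for switching off MAP kinases. Of these genes 4 were higher, 9 lower and 8 not past the threshold. They were singled out after their values were seen. Dusp3 was higher by 2.47 ± 0.26, and Dusp1, Dusp2, Dusp4, Dusp5 and Dusp6 were lower by -1.39, -2.09, -1.94, -1.10 and -1.36.

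Of 11 measured transcription factors known as JNK substrates, 5 were lower and 1 was higher, with a median of -0.38. That was 54.5% called and 45.5% lower, beside 38.3% and 18.5% of all named genes. Only 1 of those called, Jun, differed at least 2-fold. Jun lay at 10.64, 9.52, 9.44 and 9.67 in wildtype and at 7.24, 5.89, 6.84 and 6.33 in KO, 9.45-fold lower (-3.24 ± 0.19, adjusted p = 1.45e-07). The groups lay more than 2 log2 units apart. Jund was lower by -0.81 ± 0.20, and Stat3, Atf7 and Nfatc3 by -0.77, -0.77 and -0.46. Atf2, a partner of Jun, was higher by 0.44 ± 0.11, a call lost without the set block and with median scaling (adjusted p = 0.0601 and 0.0633).

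The sequences before the starts of Jun and Mmp3 are shown because they hold the letters that Jun-containing dimers are known to read, while the 2 genes differed in opposite directions. The 250 bases upstream of the annotated start (RefSeq, GRCm38.p6, 5′ to 3′ on the gene's strand) lie at chr4:95052223-95052472 (minus strand) for Jun and at chr9:7445572-7445821 (plus strand) for Mmp3, with the matches in capitals.
Jun: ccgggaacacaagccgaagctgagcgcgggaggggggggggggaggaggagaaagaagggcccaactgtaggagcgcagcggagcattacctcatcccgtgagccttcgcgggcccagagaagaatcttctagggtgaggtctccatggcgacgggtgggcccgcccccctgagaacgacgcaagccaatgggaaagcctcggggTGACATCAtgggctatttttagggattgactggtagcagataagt
Mmp3: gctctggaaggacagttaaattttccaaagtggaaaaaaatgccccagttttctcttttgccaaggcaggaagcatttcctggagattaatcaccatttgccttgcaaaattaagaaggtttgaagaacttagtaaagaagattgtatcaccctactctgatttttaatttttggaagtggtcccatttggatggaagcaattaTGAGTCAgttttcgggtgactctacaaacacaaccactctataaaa
The motifs searched on both strands were TGANTCA and TGACNTCA, and each window held 1 match. Jun held the second at position -45 from the start and Mmp3 the first at -46. Among the 27025 genes of the promoter table, 7.82% held the first and 8.55% the second in the same window, and among the 9722 tested genes with a window 6.2% and 7.49% did. Either motif was held by 16 of the 150 genes named by rule, 14.8% of the 108 with a window, beside 13.1% of the tested genes. A match is a run of letters and not a measured binding site.

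Among secreted and membrane ligands and their receptors, single genes differed widely, and the split between higher and lower members varied from family to family. Of 21 semaphorins, plexins and neuropilins, which steer cell migration, 5 were higher and 6 lower (52.4% called, beside 38.3% of all named genes). Sema3f lay between 4.24 and 4.66 in wildtype, undetected, and at 9.78, 8.98, 8.24 and 9.16 in KO, at least 21.8-fold higher. The neuropilin Nrp1 was higher by 2.39. The membrane semaphorins Sema7a and Sema5a were lower by -3.81 ± 0.30 and -3.08 ± 0.23. Ephrins and Eph receptors gave 4 higher and 1 lower of 16 (31.2% called). Efna5 was higher by 1.55 ± 0.12 and Efna4 by 0.96 ± 0.20, and Efnb2 was lower by -1.08 ± 0.22.

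The Notch pathway gave 4 higher and 1 lower of 14 (35.7% called, beside 38.3% of all named genes). Its target genes Hey1 and Hes1 were higher, by 3.10 ± 0.20 and 1.73 ± 0.22, as were the receptor Notch3 (1.59) and the ligand Jag1 (at least 1.86-fold, detected on 0 wildtype arrays), whereas the receptor Notch4 was lower by -1.89 ± 0.29. In the Hedgehog pathway 2 of 10 were called (20%). The transcription factor Gli2 was lower by -2.56 ± 0.19, and the receptor Ptch1, itself a Hedgehog target, was higher by 2.17 ± 0.20. Of 13 retinoid genes, 2 were higher and 3 lower (38.5% called). Cyp26b1, which degrades retinoic acid, and Stra6, a retinol transporter, were higher by 2.32 ± 0.31 and 1.52 ± 0.29, and the receptor Rarb was lower by -1.31 ± 0.26.

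In the TNF superfamilies 5 were higher and 6 lower of 25 (44% called, beside 38.3% of all named genes). Beside Tnfsf11, the ligand Tnfsf9 was at least 4.71-fold lower, and the death receptor Fas was higher by 1.72 ± 0.18. Tnfrsf11b, the decoy receptor of RANKL, was higher by 1.68, so ligand and decoy differed in opposite directions. Of 25 receptor tyrosine kinases 4 were higher and 6 lower (40% called). Flt1, a VEGF receptor, was higher by 3.24 ± 0.21, and the FGF receptors were split. Fgfr2 lay at 8.45, 8.89, 8.02 and 9.02 in wildtype and at 10.47, 10.55, 10.17 and 10.82 in KO (1.90 ± 0.21), while Fgfr1 was lower by -1.58 ± 0.22. The 39 cytokine receptor genes gave 8 higher and 8 lower (41% called). The growth hormone receptor Ghr was lower by -2.20 ± 0.21 and the decoy receptor Il13ra2 by -1.86 ± 0.27. Il1rn, which the name pattern of the list took in although it encodes the secreted antagonist of IL-1, lay at 7.01, 6.79, 7.73 and 7.36 in wildtype and at 10.31, 11.02, 10.31 and 8.87 in KO (2.91 ± 0.37).

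G protein-coupled receptors gave 15 higher and 14 lower of 68 (42.6% called, beside 38.3% of all named genes). The orphan receptor Gpr149 was lower by -7.20 ± 0.37, a fitted value, since it was detected on 2 KO arrays (4.23, 6.53, 5.07 and 4.56 in KO). Lgr6, a receptor for R-spondins, was at least 5.82-fold lower. Of the 8 measured Frizzled genes, which encode Wnt receptors and were singled out after their values were seen, 5 were higher and 3 (Fzd3, Fzd4 and Fzd8) did not pass the threshold, beside 19.8% of all named genes higher. Fzd6 was higher by 2.58 ± 0.20, Fzd5 by 2.10, Fzd2 by 1.29 and Fzd7 by 0.95, and Fzd1, detected on 0 wildtype arrays, was at least 2.74-fold higher.

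The list of sensors of microbial products and cytosolic nucleic acid, which takes in adaptors and co-receptors, held mostly lower members. Of 15 measured, 9 were lower and 1 higher, with a median of -0.56 against 0.02 for all named genes, and 10 of 15 called against 38.3%. Cgas, which senses cytosolic DNA, lay at 10.16, 9.43, 9.91 and 9.70 in wildtype and at 6.82, 7.07, 6.71 and 6.39 in KO (-3.05 ± 0.18, adjusted p = 1.45e-07). Its adaptor Sting1 was lower by -2.72, the peptidoglycan sensor Nod1 by -2.84 ± 0.17, and the RNA helicase Dhx58 by -2.47. The DNA sensor Aim2 was detected on 0 KO arrays and was at least 3.26-fold lower. Cd14, Ticam1, Mavs and Tlr4 were lower by -1.56, -0.99, -0.56 and -0.55. The co-receptor Ly96 was the single higher member (0.59 ± 0.19), and its call was lost in 13 of the 22 alternatives. Tlr2, Tlr6, Tlr7, Myd88 and Zbp1 did not pass the threshold.

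**Figure D4:**
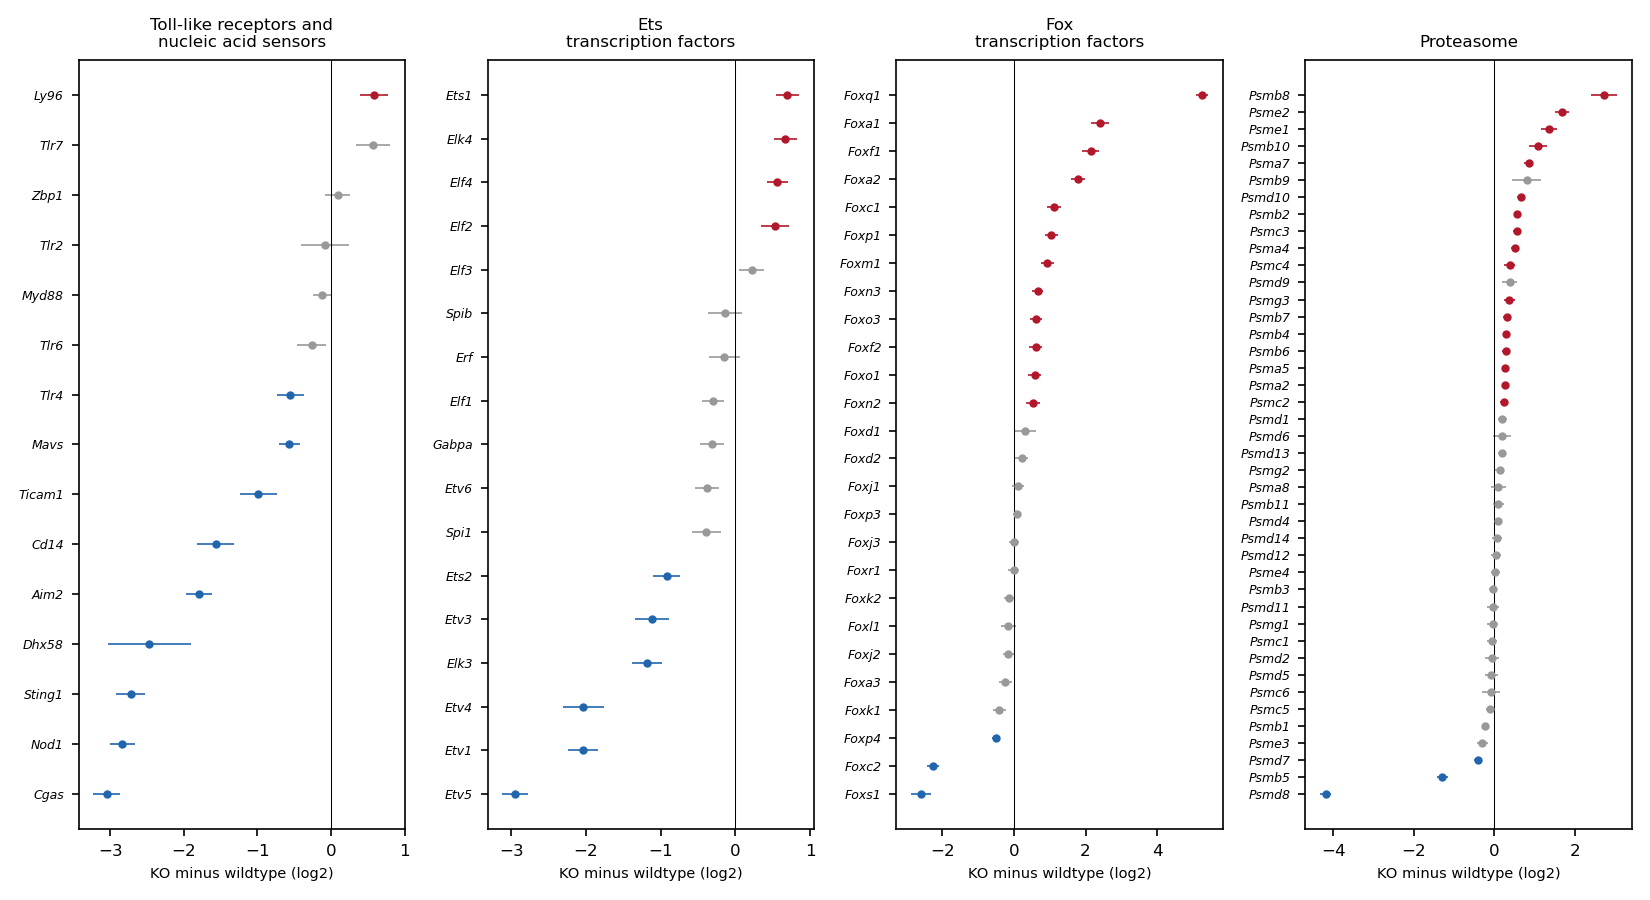
Log2 difference KO minus wildtype (horizontal, bars ± 1 standard error) of each measured member of 4 gene families at day 6, with members higher in KO in red, lower in blue and not past the threshold in grey. Of the 15 sensors, adaptors and co-receptors 9 lie below 0 and are called, and the Fox genes hold 12 higher members of 26. The 5 Ets genes at least 2-fold different are all lower, and Psmd8 stands apart from the other proteasome genes at -4.19.

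Adhesion and junction families held single genes with large differences. Of 41 cadherins and protocadherins 11 were called (26.8%, beside 38.3% of all named genes). Cdh13 and Pcdh19 were higher by 2.36 ± 0.23 and 2.33 ± 0.18, and Pcdh9 was lower by -1.16 ± 0.20. Among 25 adhesion molecules of the immunoglobulin superfamily 5 were higher and 5 lower (40% called). Alcam lay at 9.41, 9.32, 8.56 and 9.23 in wildtype and at 5.12, 5.80, 5.61 and 6.29 in KO (-3.43 ± 0.26), and the junction protein Jam2 was lower by -2.23 ± 0.28. Of 21 tight junction and connexin genes 5 were lower and 1 higher (28.6% called). Cldn15 lay at 9.54, 10.89, 11.71 and 10.31 in wildtype and at 6.40, 5.57, 5.03 and 5.50 in KO. Its difference of -4.98 ± 0.41 was -5.60 within the brighter set. The connexin Gja4 was lower by -2.14 ± 0.37, whereas Cldn2 was at least 5.82-fold higher.

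At the cell surface and in the matrix, the heparan sulphate family gave 6 higher and 8 lower of 24. That was 58.3% called, beside 38.3% of all named genes. Sulf2, which removes sulphate groups from heparan chains outside the cell, lay at 5.68, 6.35, 6.57 and 5.96 in wildtype and at 10.89, 11.73, 11.69 and 11.14 in KO, 37.4-fold higher (5.22 ± 0.18). The sulphotransferase Hs3st3b1 was at least 2.99-fold higher, and Hpse, which cuts heparan chains, was lower by -1.79 ± 0.21. Of 11 hyaluronan-related genes 4 were higher and 3 lower (63.6% called). The large proteoglycan Vcan lay at 8.69, 9.67, 9.05 and 8.94 in wildtype and at 4.85, 5.57, 5.44 and 5.05 in KO (-3.86 ± 0.20, 4 of 4 probes lower). Cemip, which breaks down hyaluronan, was higher by 2.94 ± 0.27, and Has1, a hyaluronan synthase, was lower by -1.35. ADAM and ADAMTS proteases gave 2 higher and 7 lower of 28 (32.1% called). Adamts12 was lower by -2.10 ± 0.26, with 1 of 2 probes in that direction, and Adamts1 was higher by 2.00 ± 0.27. Adam8 was lower by -1.50 ± 0.22, but 1 of its 3 probes was called in the other direction.

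In the cell body, intermediate filament genes gave 5 higher and 8 lower of 27 (48.1% called, beside 38.3% of all named genes). Krt19, a simple epithelial keratin, lay at 8.81, 8.71, 8.92 and 7.64 in wildtype and was detected on 0 KO arrays, at least 15.6-fold lower, and Krt20 was lower by -3.97 ± 0.31. The stem cell filament Nes was higher by 1.61 ± 0.29, with KO replicate 4 above the other KO arrays. Of 35 tubulin and microtubule genes 11 were higher and 6 lower (48.6% called). The microtubule destabilizer Stmn1 was higher by 2.08 ± 0.18 and Tppp3 was lower by -2.07 ± 0.23. Among 21 S100 and annexin genes 5 were higher and 3 lower (38.1% called). Anxa8 was higher by 3.26 ± 0.16 and Anxa9 at least 2.28-fold lower, and the 2 probes of Anxa4 were called in opposite directions.

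Several transcription factor families held strongly different members. Of 26 Fox genes 12 were higher and 3 lower (57.7% called and 46.2% higher, median 0.26). Of all named genes 38.3% were called and 19.8% higher, with a median of 0.02. Foxq1 lay at 4.59, 4.29, 4.41 and 4.23 in wildtype, undetected, and at 9.47, 9.66, 9.56 and 9.87 in KO, at least 33.7-fold higher. Foxa1, a factor best known from endoderm, was higher by 2.39 ± 0.25, and its relative Foxa2 and the mesenchymal factor Foxf1, both undetected in wildtype, were at least 2.81-fold and 4.12-fold higher. Foxs1 was lower by -2.59 ± 0.27, and Foxc2, detected on 0 KO arrays, at least 4.01-fold lower. Of 17 Ets genes 6 were lower and 4 higher (58.8% called). Etv5, Etv1 and Etv4, the Pea3 group that is known to respond to FGF signalling, were lower by -2.95 ± 0.17, -2.04 ± 0.20 and -2.04. The mean of Etv5 was 8.87 in wildtype and 5.92 in KO, and its KO arrays lay at 5.68, 5.98, 5.68 and 6.35. Ets1 was higher by 0.70 ± 0.16, with 2 of 3 probes in that direction, and no Ets gene was higher by 2-fold or more.

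Homeobox genes outside the Hox clusters gave 11 higher and 12 lower of 49 (46.9% called, beside 38.3% of all named genes). Of the 49, 17 were called at least 2-fold different (13.8% of all named genes were). En2 lay at 5.19, 4.12, 4.22 and 4.40 in wildtype and at 9.97, 10.14, 10.07 and 9.60 in KO (5.46 ± 0.20), and its paralog En1 was higher by 2.04. Irx2, Irx3 and Irx1 of the Iroquois group were higher by 4.65 ± 0.20, 3.37 and 1.33, and Msx1 by 4.15. The LIM homeobox gene Isl1 was lower by -4.31 ± 0.23, and Alx4, detected on 0 KO arrays, was at least 4.76-fold lower. Of 6 T-box genes 2 were higher and 1 lower (50% called). Tbx3 was higher by 3.54 ± 0.20, Tbx6 at least 1.35-fold higher and Tbx15 lower by -0.51 ± 0.15. The last 2 calls were lost in 3 and 9 alternatives. Of 10 Sox genes 3 were higher and 2 lower (50% called). Among them Sox12 and Sox11 were higher by 2.39 ± 0.14 and 1.52 ± 0.24, and the cartilage factor Sox5 was lower by -1.24 ± 0.16.

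Of 23 mesenchymal basic helix-loop-helix and zinc finger factors 9 were lower and 4 higher (56.5% called, beside 38.3% of all named genes). Gata6 lay at 9.58, 10.20, 9.58 and 10.34 in wildtype and at 6.99, 7.09, 7.14 and 6.41 in KO (-3.02 ± 0.22), Ebf3 was lower by -2.06 ± 0.19, and the tendon factor Scx was higher by 2.50 ± 0.25. Nuclear receptors gave 2 higher and 4 lower of 26 (23.1% called). The adipocyte regulator Pparg lay at 9.50, 10.78, 10.65 and 10.27 in wildtype and at 6.78, 5.72, 5.13 and 5.77 in KO (-4.45 ± 0.35), the bile acid receptor Nr1h4 was at least 3.68-fold higher, and Rorb was lower by -1.50 ± 0.25. Of 18 Kruppel-like and Sp factors 3 were called (16.7%): Klf5 lower by -1.36 ± 0.16, Klf7 higher by 0.72 ± 0.20 and Sp8 higher by 0.73 ± 0.20, a call lost with replicate 1 of either genotype left out.

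Among solute carriers and lipid enzymes more genes were lower than higher. Of 201 solute carriers 59 were lower and 26 higher (42.3% called and 29.4% lower, beside 38.3% and 18.5% of all named genes, median -0.11). Slc24a3, a sodium, calcium and potassium exchanger, was nevertheless 33.5-fold higher, from 5.57, 5.98, 5.69 and 6.25 in wildtype to 10.93, 11.02, 10.72 and 11.09 in KO. The prostaglandin transporter Slco2a1 was lower by -3.56 ± 0.30 and the cystine transporter Slc7a11 by -2.64. The sodium and calcium exchanger Slc8a1 was lower by -2.69 ± 0.20, with 3 of 4 probes in that direction. Of 68 enzymes of phospholipid, sphingolipid and glycolipid metabolism 22 were lower and 8 higher (44.1% called and 32.4% lower, median -0.21). Pla2g7, which hydrolyses platelet-activating factor, lay at 9.99, 10.27, 10.18 and 10.42 in wildtype and at 6.03, 4.91, 4.69 and 4.67 in KO (-5.14 ± 0.25). Of its 6 measured St3gal sialyltransferase genes, singled out after their values were seen, St3gal1, St3gal2, St3gal3 and St3gal4 were lower by -3.59 ± 0.21, -1.17, -0.66 and -1.47, St3gal6 was higher by 1.77 ± 0.21, and St3gal5 did not pass the threshold.

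Of 89 ion channel genes 24 were called, 10 higher and 14 lower (27% called, beside 38.3% of all named genes). The sodium channel Scn3a and the potassium channel subunit Kcnmb4 were detected on 0 wildtype arrays and were at least 15.2-fold and 8.26-fold higher. Kcnk5 was lower by -1.97 ± 0.25. Of the probes past the filter, 1 of 2 for Scn3a and 2 of 3 for Kcnk5 had the stated direction, and 0 were called in the other. The 48 aldehyde dehydrogenases, aldo-keto reductases and cytochromes P450 gave 12 higher and 13 lower (52.1% called). Cyp7b1, an oxysterol hydroxylase, lay at 4.38, 4.59, 4.95 and 5.23 in wildtype and at 8.79, 9.96, 9.43 and 8.92 in KO (4.49 ± 0.23), and Cyp2d22 was at least 33-fold lower.

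**Figure D5:**
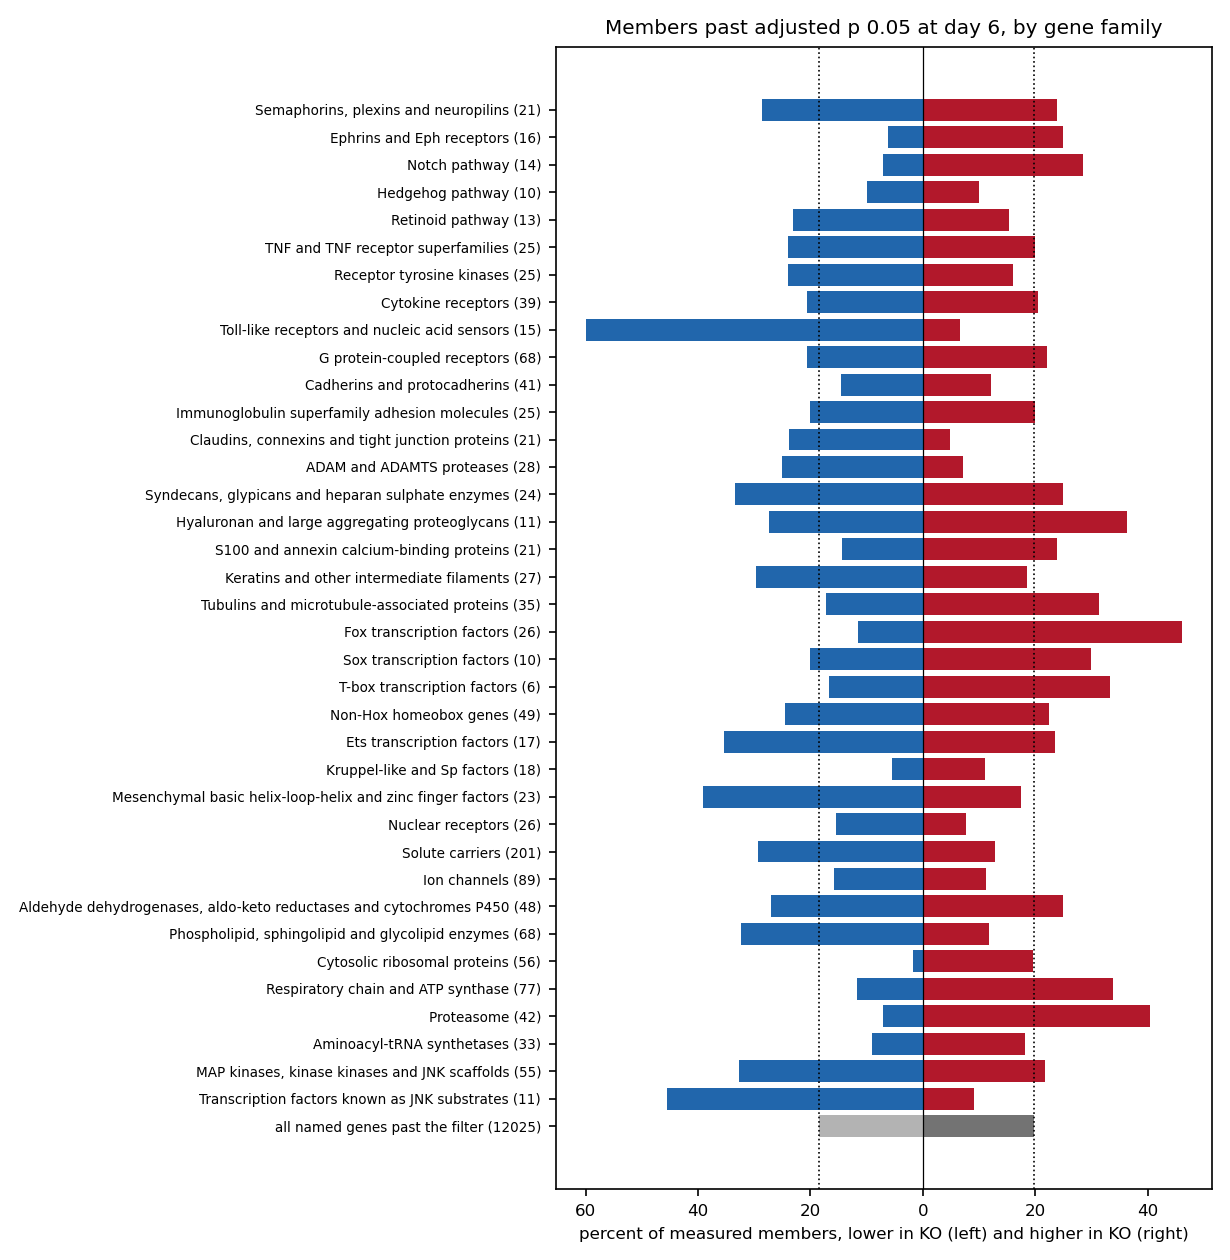
Percent of the measured members of each of 37 gene families that were higher (red, right) or lower (blue, left) in KO at day 6 at an adjusted p under 0.05, with the number of measured members in brackets. The grey bar and dotted lines give all 12025 named genes (19.8% higher, 18.5% lower). The list of sensors with their adaptors and co-receptors reaches furthest to the left and the Fox genes furthest to the right.

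Housekeeping families differed in the share of members called, which was 47.6% for the proteasome, 45.5% for the respiratory chain and ATP synthase, 21.4% for ribosomal proteins and 27.3% for aminoacyl-tRNA synthetases, beside 38.3% of all named genes. Most of these differences were under 2-fold. Of 42 proteasome genes 17 were higher and 3 lower, of 77 respiratory chain and ATP synthase genes 26 higher and 9 lower, and of 56 ribosomal protein genes 11 higher and 1 lower. With median scaling the counts were 9 and 3, 14 and 8, and 7 and 1. The respiratory genes lay between -0.79 (Cycs, cytochrome c, ± 0.14) and 1.14 (Atp5e, ± 0.18), with a median of 0.11. In the proteasome, Psmd8, a subunit of the regulatory particle, lay at 11.45, 11.42, 11.11 and 11.13 in wildtype and at 7.30, 7.21, 6.78 and 7.06 in KO (-4.19 ± 0.14, 1 probe). The immunoproteasome subunit Psmb8 and the activator Psme2 were higher by 2.73 ± 0.32 and 1.67 ± 0.18, whereas the constitutive subunit Psmb5 was lower by -1.29. Rpl21, Rps15a and Rps3a1 gave 2.07 ± 0.15, 1.71 ± 0.22 and -1.31 ± 0.10. Ribosomal protein genes have many near-identical copies in the genome, so which copy a probe reads is uncertain. Of 33 synthetases 6 were higher and 3 lower. The mitochondrial enzyme genes Fars2 and Mars2 were higher by 0.88 ± 0.13 and 0.84 ± 0.23 (Mars2 not without wildtype replicate 4), and Lars2 was lower by -2.28 ± 0.19.

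The fibroblast label was checked against 12 defining markers, of which 9 were detected on all 8 arrays. Col1a1 lay at 11.15, 12.62, 12.62 and 12.55 in wildtype and at 11.71, 12.77, 11.80 and 12.18 in KO and did not pass the threshold, nor did Col3a1, Pdgfrb, Fn1, S100a4 and P4hb. Vim and Sparc were higher in KO by 0.50 ± 0.12 and 0.97 ± 0.12, the Vim call being lost without the set block. Col1a2, the partner chain of type I collagen, lay at 8.46, 9.10, 8.88 and 8.51 in wildtype. It was detected on 0 KO arrays, at least 17-fold lower, a value that rests on 1 probe. Thy1 was detected on 0 KO arrays too, at least 3.15-fold lower, and Pdgfra and Fap were lower by -1.29 ± 0.27 and -1.72 ± 0.19. Fn1 (-0.58 ± 0.22, adjusted p = 0.0554) was called in 7 of the 22 alternatives.

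Markers of other cell types were read by list, and their part in the results above was not tested. Of the 10 keratinocyte markers on the array, 6 passed the filter, with means over the 6 of 5.75 to 5.95 in wildtype and 5.25 to 5.78 in KO. The keratin gene Krt10 was detected on all 8 arrays (means 9.01 and 9.21) and did not pass the threshold, involucrin (Ivl) was at least 6.38-fold lower in KO, and Krt14, Lor, Dsg3 and Sfn did not pass the filter. Of the cartilage and bone markers 3 passed the filter and 0 were called, with list means of 7.21 to 7.81 in wildtype and 6.80 to 7.41 in KO. Sox9, a cartilage factor, was bright on all 8 arrays (means 11.73 and 11.35), while the cartilage matrix genes Acan and Col2a1 had means of 4.69 and 5.80 in wildtype and 4.77 and 5.25 in KO, and Sp7 and Bglap did not pass the filter.

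The endothelial list had means of 5.02 to 5.40 in wildtype and 6.02 to 6.52 in KO. Of its 3 markers past the filter Flt1 alone was called (3.24 ± 0.21), Cdh5 and Tek gave -0.09 ± 0.23 and -0.03 ± 0.19, and Pecam1, Kdr and Emcn did not pass the filter. The neural list lay at 4.72 to 4.83 in wildtype and 6.33 to 6.91 in KO, with Map2 and Nes the 2 called of 4. The adipocyte list lay at 6.39 to 7.40 and 4.67 to 5.33, with Pparg and Adipoq lower in KO and Cebpa not past the threshold, and Fabp4 and Plin1 did not pass the filter. The simple epithelial list lay at 5.98 to 6.49 and 4.87 to 4.96, with Krt19 and Krt18 the 2 called of 4, both lower, and Epcam, Cldn4 and Esrp1 did not pass the filter. The skeletal muscle list lay at 5.16 to 5.57 and 4.94 to 5.45, with desmin (Des) lower by -0.74 ± 0.15. The leukocyte list lay between 4.39 and 5.07 over the 8 arrays with 0 of 2 called, and Ptprc, Lyz2 and Itgam did not pass the filter.

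The genotype difference of day 6 was set against that of days 2 and 4, which rest on 2 arrays per genotype and day, in a fit of 16 arrays. Of 16322 features 1 passed the threshold (0.00613%), and 1071 had an unadjusted p under 0.05 (6.56%). The one was Frmd5, a FERM-domain gene, detected on 0 KO arrays at days 2 and 4. It lay at 6.39 and 6.77 in wildtype at day 2, at 7.16 and 7.26 at day 4, and at 6.36, 5.42, 5.53 and 5.90 at day 6. The KO arrays lay between 4.30 and 4.52 on the earlier days and at 5.80, 4.67, 4.77 and 4.75 at day 6. KO was at least 4.69-fold lower than wildtype on the earlier days, a bound, and lower by -0.80 ± 0.17 on the log2 scale at day 6, where the genotypes overlapped. At day 6, 1 of the 2 Frmd5 probes past the filter was lower in KO. The fit put the days apart by 1.68 ± 0.24 (adjusted p = 0.0315), a value that rests on KO signals not above background, and with the bound in their place the days lay at least 1.43 apart. That call was lost in 16 of 22 alternatives. A difference between days that did not pass the threshold does not show that the days were alike.

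Genes near the targeted loci in gene order, at no set distance in bases, were counted separately. Of the 50 measured genes nearest to Mapk8 (25 on each side, RefSeq, GRCm38.p6), 15 were higher and 6 lower, 21 in all (42%). The 3 with the largest differences were Bmp4 and Anxa8, both higher, and Arhgap22, which was lower by -4.06 ± 0.26. Of the nearest 20 genes 45% were called, and the largest differences there were those of Arhgap22, Anxa8 and Galnt15, without Bmp4. Of the 50 nearest to Mapk9, 12 were higher and 3 lower (30%), and of the nearest 20 genes 25% were called. Of the nearest 100 genes 35% were called for Mapk8 and 33% for Mapk9. Over all named genes 38.3% were called.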

How the data were processed

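Total RNA was measured on 18 single-colour Illumina mouse bead arrays. Per the file headers, the deposited table gave each of 45121 probes an intensity (mean over beads, not normalized) and a detection p-value on every array. The authors also deposited a log2 matrix. Its values matched log2 of quantile-normalized intensities to within 0.00500. Aligners do not apply, and the scanner software is not given in the sources used here. Detection p-values of the deposited table were 2-sided on the 6 arrays of the brighter set (day 6 replicates 2 to 4) and were converted to 1-sided values.

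Intensities were background-corrected and quantile-normalized over all 18 arrays by neqc (limma 3.58.1, R 4.3.3, offset 16). The filter kept 23727 probes whose detection p-value was below 0.01 on 2 or more of the 8 day 6 arrays. The probe with the highest mean stood for a gene, which left 16322 features, 12025 with 1 symbol. A single symbol was known for 34763 probes, several for 18 and none for 10340, from GEO's platform annotation, and 34685 were updated by gene ID. KO was compared with wildtype with limma (lmFit, eBayes with a trend), with genotype and set as terms, 2-sided, with Benjamini-Hochberg adjustment over all features and a threshold of 0.05. Day 6 was set against days 2 and 4 in a fit of 16 arrays. The code was tested on simulated data.

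Where no array of a genotype detected a gene, the fold is a lower bound, "at least", set by the lowest signal counted as detected on those arrays. Where only some arrays of a genotype detected it, the difference is a fitted value that takes in signals not above background. Among others this holds for Sema7a, Krt20, Isl1, Jam2 and Kcnk5 (detected on 1 KO array) and for Tnfsf11, Gpr149, Pla2g7 and Slco2a1 (2 KO arrays). The precision is limited by the number of arrays and by how far a signal lies above background, since arrays have no counting depth. Named genes were Mapk8 and Mapk9, the 8 per direction with the largest t, the 6 per direction with the brightest probes among those at least 4-fold different (both with genotypes that do not overlap), up to 3 called members of each of 38 families (1 of which is not reported here), the genes differing between days, and the fibroblast markers. Other members of a family given with a value were added after their values were seen. The members, lists and tests were chosen with earlier results of these data known. Promoter windows came from RefSeq (GRCm38.p6), and 108 of the 150 named genes had one.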

Additional observations from a re-analysis of the deposited data

Results flagged for a closer look

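Of 300 groups of 4 arrays (150 named genes, 2 genotypes), 21 held 1 array far from the other 3, with a gap over Dixon's critical value for 4 samples, and chance gives about 1 in 20. On 9 occasions the array was replicate 1, which is of the other processing set. In wildtype replicate 1, Bmp4 stood at 4.90, Tbx15 at 5.66, Rorb at 8.18 and Col1a1 at 11.1 (normalized log2 signal). In KO replicate 1, Tpsab1 stood at 4.84, Pcdh19 at 9.43, Tbx15 at 4.98, Isl1 at 5.38 and Frmd5 at 5.80.

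KO replicate 2 stood apart for Dlk1, at 9.39 where the other KO arrays lay at 4.24 to 4.42. In wildtype replicate 2, Hp stood at 13.8. In wildtype replicate 4, from 3 pooled inserts, Efnb2 stood at 6.69, Pcdh9 at 6.41, Krt19 at 7.64, Foxs1 at 8.70 and Nr1h4 at 4.59. In KO replicate 4, Anxa4 stood at 10.1, Nes at 7.23, Klf7 at 9.93, Nr1h4 at 5.69 and Fap at 4.97.

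Over all features, KO replicate 4 lay more than 1 log2 unit below both other KO arrays of its set for 214 features and above them for 90. The next highest counts were 82 below for wildtype replicate 2 and 44 above for wildtype replicate 4.

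Frmd5 differed between days by a test of the difference itself, with a fitted genotype difference that was 1.68 higher at day 6 than on days 2 and 4, when no KO array detected it.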

How the results depend on the processing

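The count of 5591 features called at day 6 (34.3%) stayed within 1.5 times under all alternatives. It ran from 4286 without the set block (26.3%) to 7808 of 23727 with every probe as a feature (32.9%). With 1 array left out it was 4609 to 5700. The share called depended more on the filter. It was 16.6% without the filter (4886 of 29388) and 47.3% with detection on all 4 arrays of a genotype required (5571 of 11780). Replicates 2 to 4 alone gave 4619, and leaving out replicate 2 of both genotypes, chosen after seeing the data, gave 4602. Median scaling gave 5107, of which 43.3% were higher in place of 51.7%. Within the brighter set the deviations of same-numbered arrays had an r of -0.0436, 0.151 and -0.0196 for replicates 2, 3 and 4, so the numbers were not taken to pair the arrays, and with the replicate number as a block 5453 features were called. Of 3299 values of the 150 named genes under 22 alternatives, none reversed, 33 lost a call (Ly96, Tbx6, Tbx15, Sp8, Mars2, Atf2, Frmd5 and Vim) and 15 gained one (Fn1, S100a4 and P4hb).

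The day comparison called 1 feature, and limma called 0 without the set block, with the replicate block, in the dimmer set only, with median scaling and without the filter, where 632, 940, 963, 1343 and 1783 had an unadjusted p under 0.05. The deposited matrix gave 10. Leaving out 1 array gave 0 to 46, with 43 without wildtype day 6 replicate 1 and 46 without KO day 6 replicate 1, the 2 arrays that tie the sets together, 3 without wildtype day 6 replicate 4 and 2 without wildtype day 4 replicate 1. The cause was not tested.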
